A study of Mus musculus with 7 samples.

Results

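Glycolysis splits glucose into pyruvate in the cytosol, and its genes were followed here in mouse fibroblasts during chemical reprogramming. The set holds 35 of the 53715 genes in the deposited expression table. Its members were chosen by gene name for their place in glucose uptake, glycolysis and its control, lactate formation and transport, and the entry of pyruvate into mitochondria. Of the 35 genes, 33 had a mean of at least 1 TPM, a transcript count scaled by transcript length and by library, and were tested among 13929 genes. The others, the fructose bisphosphatase genes Fbp1 and Fbp2, lay under that level.

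The cells were mouse embryonic fibroblasts at passage 3, from embryonic day 13.5 of the OG2 strain, CBA-Tg(Pou5f1-EGFP)2Mnn/J, whose green fluorescent reporter is driven by Pou5f1. They were grown in Stage 1 medium, in which small molecules replace introduced reprogramming genes. Both groups received the growth factor bFGF at 20 ng/ml and vitamin C at 250 µM, under a protocol of 12 days. Both also received CHIR99021 at 20 µM, VPA at 0.5 mM, Forskolin at 50 µM, 616452 at 10 µM, AM580 at 0.5 µM, Parnate at 5 µM and EPZ004777 at 5 µM. One group of 2 RNA-seq libraries was given the solvent DMSO, and the other group of 2 was given R406, an inhibitor of the kinase Syk. The sources used here give neither the concentration of R406 nor the day of RNA harvest. They also do not say whether replicates were separate cultures, and the spread behind each p-value may thus be technical. A second assay, CUT&Tag, cuts DNA where an antibody is bound. It was run on fibroblasts infected with lentiviruses for rtTA and a doxycycline-driven FLAG-tagged Nfatc1, a transcription factor activated through calcineurin, and the deposited lists come from 1 library with DMSO and 1 with R406 at day 4. The binding data therefore concern an introduced, tagged protein.

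Glucose enters a cell through transporters of the Slc2a family and is trapped by hexokinase. Phosphofructokinase then commits the sugar to glycolysis, and the lower steps yield pyruvate. Pyruvate is either reduced to lactate, which leaves or enters through monocarboxylate transporters, or oxidised in mitochondria by pyruvate dehydrogenase, which its kinases switch off. Most steps can be carried out by several isozymes that differ in tissue, kinetics and control. Many of these genes are known targets of the hypoxia-inducible factor, which binds the core letters ACGTG, and proliferating fibroblasts run the pathway at a high rate even with oxygen.

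The DNA just before the start of 6 members is shown first, because their transcripts or peaks carry most of what follows. Each line is the 250 bases before a RefSeq start (GRCm38.p6, the mm10 assembly), 5′ to 3′ on the gene's strand, with ACGTG or its reverse complement CACGT in capitals. Slc16a3, which exports lactate, lies on the plus strand at chr11:120948817-120949066. Slc16a1, the more widely used lactate transporter, lies on the plus strand at chr3:104638414-104638663. Ldha, which turns pyruvate into lactate, is on the plus strand at chr7:46845554-46845803. Hk2, the inducible hexokinase, is on the minus strand at chr6:82774455-82774704. Pgk1, phosphoglycerate kinase, is on the plus strand at chrX:106186850-106187099. Pdk4, a kinase that inactivates pyruvate dehydrogenase, is on the minus strand at chr6:5496279-5496528.
Slc16a3: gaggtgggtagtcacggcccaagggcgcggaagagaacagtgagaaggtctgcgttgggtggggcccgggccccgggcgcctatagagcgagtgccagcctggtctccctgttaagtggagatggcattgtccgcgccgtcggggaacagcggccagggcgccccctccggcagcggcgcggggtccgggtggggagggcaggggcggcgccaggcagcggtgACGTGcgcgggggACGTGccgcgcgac
Slc16a1: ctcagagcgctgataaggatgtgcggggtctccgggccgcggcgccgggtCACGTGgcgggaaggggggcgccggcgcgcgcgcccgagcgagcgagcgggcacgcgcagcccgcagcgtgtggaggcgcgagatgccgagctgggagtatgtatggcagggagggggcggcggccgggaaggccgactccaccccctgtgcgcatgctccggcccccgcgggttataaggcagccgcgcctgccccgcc
Ldha: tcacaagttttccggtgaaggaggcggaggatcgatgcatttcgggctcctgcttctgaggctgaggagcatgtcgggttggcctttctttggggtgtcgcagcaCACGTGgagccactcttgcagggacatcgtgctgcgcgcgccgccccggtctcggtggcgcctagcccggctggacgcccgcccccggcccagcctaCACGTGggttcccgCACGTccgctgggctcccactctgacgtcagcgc
Hk2: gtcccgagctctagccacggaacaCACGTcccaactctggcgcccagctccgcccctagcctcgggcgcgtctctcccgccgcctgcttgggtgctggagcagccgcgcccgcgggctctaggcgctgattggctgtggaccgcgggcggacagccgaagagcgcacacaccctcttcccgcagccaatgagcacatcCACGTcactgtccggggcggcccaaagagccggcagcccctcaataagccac
Pgk1: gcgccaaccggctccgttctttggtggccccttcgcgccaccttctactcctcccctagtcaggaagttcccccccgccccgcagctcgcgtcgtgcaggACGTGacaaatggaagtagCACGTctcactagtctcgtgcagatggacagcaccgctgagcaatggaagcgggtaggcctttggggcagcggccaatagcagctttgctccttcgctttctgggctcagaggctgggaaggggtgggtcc
Pdk4: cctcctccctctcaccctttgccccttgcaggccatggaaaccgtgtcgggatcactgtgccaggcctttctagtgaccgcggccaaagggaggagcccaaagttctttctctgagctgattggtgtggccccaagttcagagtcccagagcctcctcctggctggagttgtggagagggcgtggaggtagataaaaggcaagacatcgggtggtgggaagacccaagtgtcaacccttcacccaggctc
Slc16a3 carried 2 matches in the last 27 bases before its start. The palindrome CACGTG holds ACGTG on both strands and counts as 2 overlapping matches, which is how Slc16a1 reached 2 and Ldha, with a pair of palindromes and a single match, reached 5. Hk2 and Pgk1 held 2 each and Pdk4 held 0.

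The clearest change lay in lactate transport. Slc16a3 rose 5.15-fold with R406, Pdk4 fell to a level 2.76-fold below DMSO, and the remaining 31 tested members did not pass the threshold. R406 was compared with DMSO by limma, a linear model with a shared estimate of spread, on log2(TPM + 1), with Benjamini-Hochberg adjustment over all 13929 genes and a threshold of 0.05. By this test 1 member was higher and 1 lower, or 6.06% of 33, beside 8.31% of all genes tested (4.26% higher and 4.05% lower). Unadjusted limma p was under 0.05 for 8 members, 3 higher and 5 lower, which is 24.2% beside 26.8% of all genes. The R406 and DMSO libraries did not overlap in 17 members, 7 higher and 10 lower, or 51.5% beside 56.1% of all genes. The set's median difference was 0.04 on the log2 scale, against −0.02 for all genes, with single members running from −1.17 to 2.25. The median size of a difference, whatever its sign, was 0.45 for members and 0.35 for all genes. So the set neither moved as a block nor was called more often than the background.

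**Figure D1:**
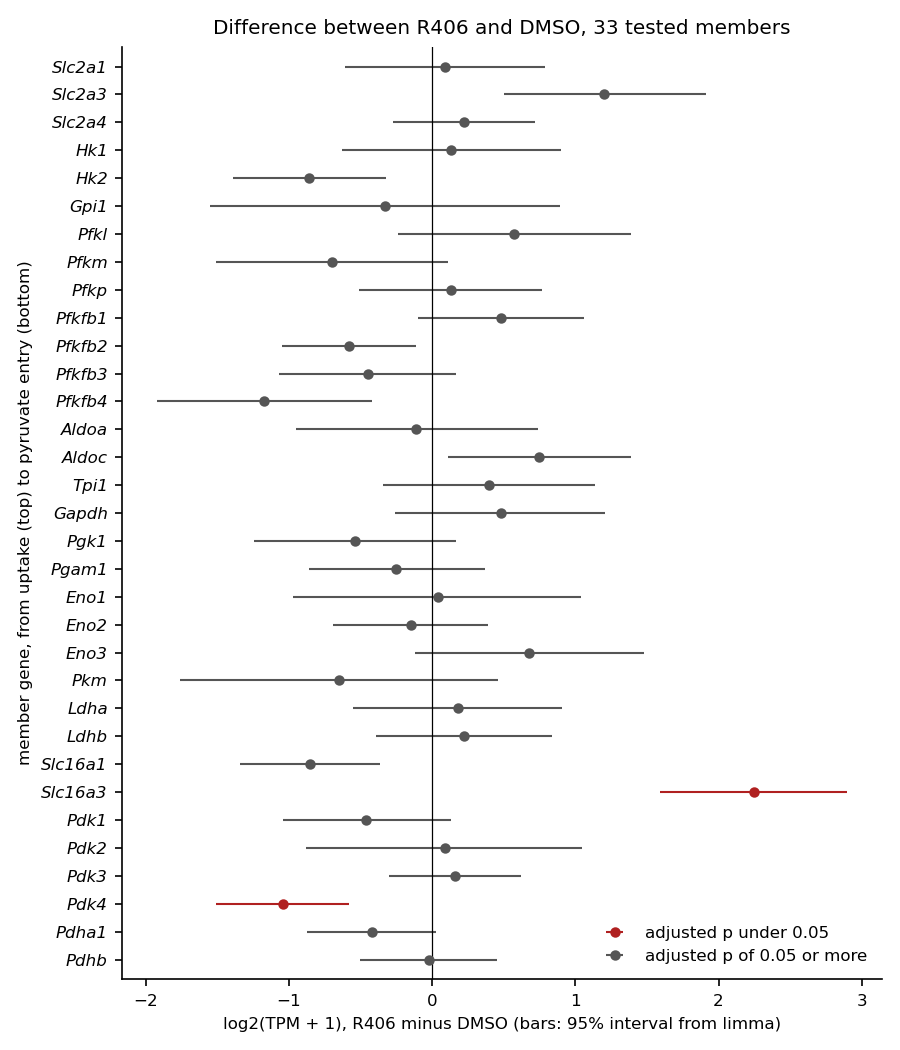
Difference in log2(TPM + 1), R406 minus DMSO, for the 33 tested members in pathway order, with 95% intervals from limma (2 libraries per group). Slc16a3 at 2.25 and Pdk4 at −1.04 are drawn in red as the members with an adjusted p under 0.05; Slc2a3, Hk2, Pfkfb2, Pfkfb4, Aldoc and Slc16a1 have intervals that leave out 0 without passing the adjustment.

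The spread between replicates was itself structured. Replicate 1 exceeded replicate 2 in both groups for 24 of 33 members, 72.7% beside 52.1% of all genes, and lay below it in both groups for 5 members. Gpi1, glucose phosphate isomerase, was 1.93 times as high in replicate 1 as in replicate 2 under DMSO and 2.02 times under R406. Pkm, pyruvate kinase, gave 1.98 and 1.67. Gapdh ran the other way, at 0.638 and 0.757. The median ratio of TPM + 1 was 1.37 and 1.29 over the members, and 1.07 and 1.16 over all genes. For Gpi1 and Pkm this step between replicates was larger than the 1.25- and 1.61-fold step between the treatment means. Shares of mitochondrial transcripts differed in the same libraries, at 10.5% and 14.2% of TPM under DMSO and 6.72% and 10.3% under R406, and their part in the replicate difference was not tested.

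**Figure D2:**
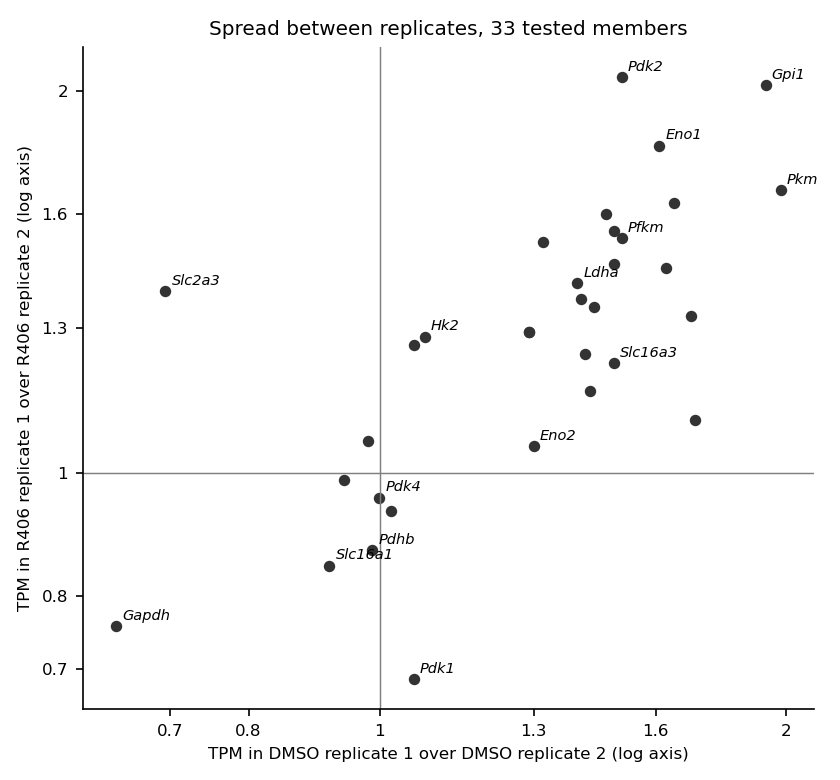
Ratio of replicate 1 to replicate 2 for the 33 tested members, with the DMSO pair on the horizontal axis and the R406 pair on the vertical axis (both log axes). Most points, 24 of 33, lie above 1 on both axes; Gapdh sits low on both, and Slc2a3 is at 0.694 under DMSO and 1.39 under R406.

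Several other facts of these libraries moved with the treatment. Macrophage markers summed to 292 and 246 TPM under DMSO and to 21.9 and 23.9 under R406, and 10 of the 11 tested fell, with none of the 14 at 0 in every library. Epithelial markers summed to 153 and 147 TPM under DMSO and 799 and 456 under R406, and 6 of 7 rose. Of 8 cell-cycle genes 5 rose, from summed levels of 88.1 and 106 TPM to 226 and 183. The defining fibroblast markers were present throughout, at 4827 and 3896 TPM under DMSO and 6094 and 4375 under R406, with 2 of 13 higher and 1 lower. Ribosomal protein genes took 14.1% and 15.5% of TPM under DMSO and 19.4% and 22.4% under R406. Bulk RNA cannot tell fewer cells of a type from less RNA per cell, and the part of these shifts in the values below was not tested.

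In absolute level Pkm and Ldha stood highest among the members in both groups. TPM is scaled by transcript length, so levels can be set side by side between genes. Pkm led in both groups, at 1429.6 ± 666 TPM under DMSO and 889 ± 316 under R406 (SD, n = 2). Ldha came next at 527 ± 124 and 597 ± 145, and Aldoa, the main aldolase, followed at 386 ± 103 and 362 ± 118. Below it under DMSO stood Pgam1, Pgk1 and Gpi1 at 336, 335 and 331 TPM, then Ldhb, Tpi1 and Eno1 at 265, 230 and 191, and neighbours in this run lay within each other's replicate spread. Under R406 the order changed to Ldhb, Tpi1, Pgam1, Gpi1, Pgk1 and Eno1, at 310.1, 307, 283, 265, 229.8 and 199 TPM. The place of Eno1 is uncertain, since with its near copy Eno1b added it reached 427 and 237 TPM under DMSO and 449 and 225 under R406. That of Pgam1 also depends on copies, with which it reached 455 and 339 TPM under DMSO and 379 and 275 under R406. All 35 genes together made up 5554 and 3605 TPM under DMSO and 4723 and 3214 under R406. Without Pkm these sums were 3654 and 2646, against 3611 and 2548, so the groups overlapped.

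**Figure D3:**
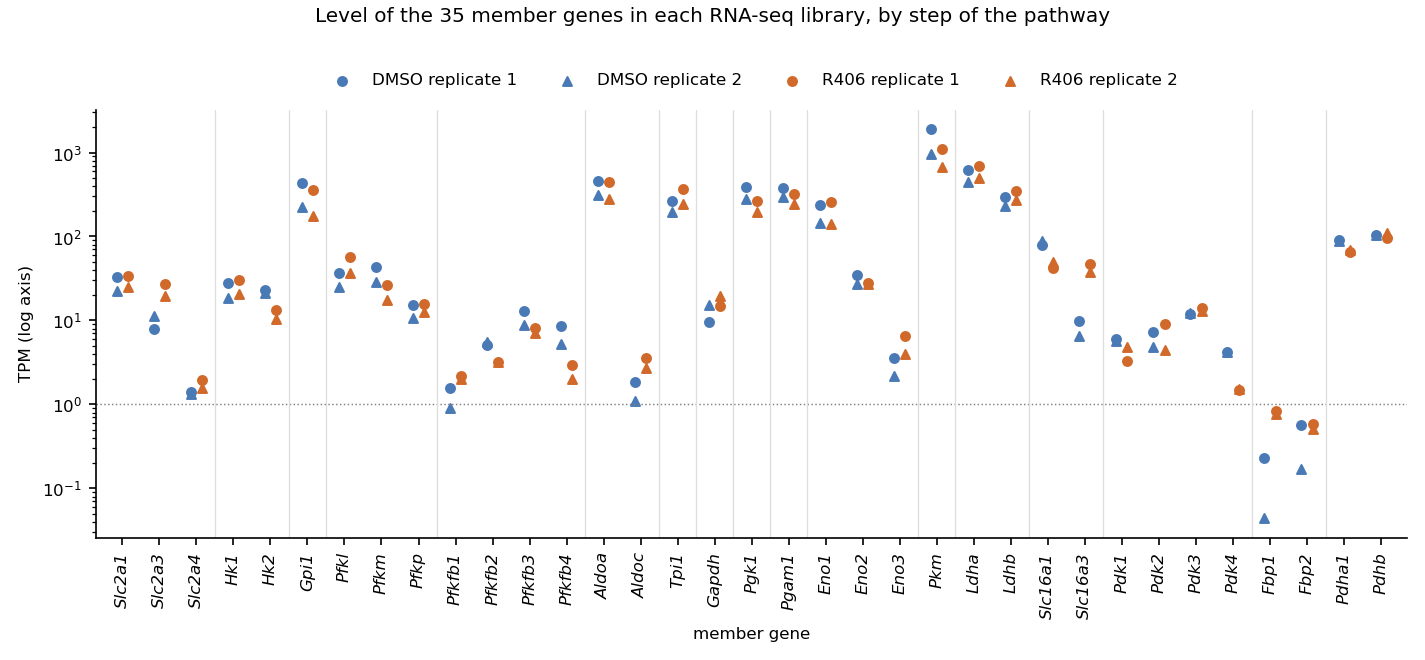
TPM of all 35 members in the 4 RNA-seq libraries (log axis), in pathway order with vertical lines between steps and a dotted line at 1 TPM. Circles are replicate 1 and triangles replicate 2; Pkm tops the plot, Gapdh stands far below its neighbours, and Fbp1 and Fbp2 lie under the dotted line.

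Among glucose transporters, Slc2a1 (GLUT1), the basal carrier of most dividing cells, was present at 32.6 and 22.6 TPM under DMSO and 33.6 and 24.9 under R406. Its groups overlapped, and the difference was 0.09 on the log2 scale (95% interval −0.61 to 0.79, limma adjusted p = 0.878). Slc2a3 (GLUT3), a high-affinity carrier typical of neurons, early embryos and pluripotent cells, stood at 7.91 and 11.4 TPM under DMSO and at 27.4 and 19.7 under R406. Both R406 libraries lay above both DMSO libraries, with means 2.44-fold apart, but the log2 difference of 1.20 (SE 0.27) missed the threshold in limma (adjusted p = 0.0656). It passed under 3 other scalings of the libraries described in the closing section, under which Hk2 and Pfkfb4 passed as well. With no filter on low values the limma adjusted p was 0.130 for Slc2a3, 0.125 for Hk2 and 0.167 for Pfkfb4. At a minimum of 5 TPM it was 0.0793 for Slc2a3 and 0.0832 for Hk2 in limma. Leaving out single libraries gave log2 differences from 0.97 to 1.44 for Slc2a3. Slc2a4 (GLUT4), the insulin-responsive carrier of muscle and fat, was near the filter at 1.40 and 1.32 against 1.96 and 1.56 TPM.

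Because TPM is per length, the share of each isozyme in the summed TPM of its step can be given within a library, where scaling of the library cancels. Slc2a3 made up 18.9% and 32.2% of the transporter transcripts under DMSO and 43.5% and 42.6% under R406. Slc2a1 fell short of its DMSO shares of 77.8% and 64.0% in both R406 libraries, at 53.4% and 54.0%. Shares were computed for 29 genes in 11 steps, and 21 of the 29 did not overlap between groups. A share that separates the groups was thus common and not particular to the steps described here. In a step with 2 members both shares hold one and the same difference. With 2 libraries against 2 there are 6 splits, so the exact two-sided permutation test cannot give less than p = 0.333 and no share difference can pass a threshold. The shares are therefore given as descriptions.

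Hexokinase also differed in the balance of its forms. Hk1, the housekeeping form, stood at 27.7 and 18.6 TPM under DMSO and 30.2 and 20.7 under R406, and its groups overlapped. Hk2, the form induced in growing and cancer cells, went from 23 and 21.2 TPM under DMSO to 13.3 and 10.3 under R406. The 2 groups of Hk2 values lay well apart, with a log2 difference of −0.86 (interval −1.39 to −0.32), which missed the threshold (limma adjusted p = 0.0737). Hk2 thus held 45.3% and 53.2% of the step's transcripts under DMSO and 30.6% and 33.3% under R406. Hk3, the form of myeloid cells, was listed at 0.0799 and 0.0608 TPM under DMSO and at 0 in both R406 libraries. Gpi1, which interconverts the hexose phosphates, ranged from 435 and 226 TPM under DMSO to 354 and 175 under R406, and the interval of its difference ran from −1.55 to 0.89.

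The makeup of phosphofructokinase-1, the committing enzyme, was nearly equal within each group and different between them. Pfkm, the muscle-type subunit, stood at 43.5 and 28.8 TPM under DMSO and 26.5 and 17.3 under R406. Pfkl, the liver-type subunit, went the other way, from 36.8 and 24.7 to 56.4 and 36.3 TPM. Neither passed on its own (limma adjusted p = 0.240 and 0.326), and both were higher in replicate 1 than in replicate 2 of each group, by 1.49- to 1.55-fold. Within a library, the ratio of Pfkm to Pfkl was 1.18 and 1.17 under DMSO and 0.469 and 0.476 under R406. In shares, Pfkm went from 45.2% ± 0.51 to 26.5% ± 0.55, and Pfkl from 38.5% ± 0.0574 to 56.0% ± 1.73 (SD, n = 2). The platelet-type subunit Pfkp stayed between 15.9% and 19.1%. The step's summed level overlapped between groups, at 95.4 and 64.2 TPM under DMSO and 98.5 and 66.3 under R406. Striated muscle markers summed to 24.5 and 16 TPM under DMSO and 27 and 15 under R406, with 1 of 5 tested higher and none lower, and their part in these shares was not tested.

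The bifunctional PFKFB enzymes make and remove the sugar phosphate that activates phosphofructokinase-1. Pfkfb4, a hypoxia-induced form, stood at 8.60 and 5.28 TPM under DMSO and 2.93 and 2.03 under R406. Both R406 values lay under both DMSO values, with a log2 difference of −1.17 (SE 0.29), and the limma adjusted p was 0.0780. Pfkfb2, the heart-type form, gave 5.15 and 5.48 against 3.20 and 3.24 TPM, replicates closely matched, at −0.58 and an adjusted p of 0.122 in limma. Pfkfb3, the form with the strongest kinase activity, gave 12.8 and 8.91 against 8.16 and 7.03 TPM (limma adjusted p = 0.315). Pfkfb1, the liver and muscle form, was the exception to the lower values, at 1.56 and 0.913 against 2.18 and 1.99 TPM, with a limma adjusted p of 0.259. The summed PFKFB transcripts were 28.1 and 20.6 TPM under DMSO and 16.5 and 14.3 under R406. Within that sum Pfkfb4 held 30.6% and 25.6% under DMSO and 17.8% and 14.2% under R406.

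**Figure D4:**
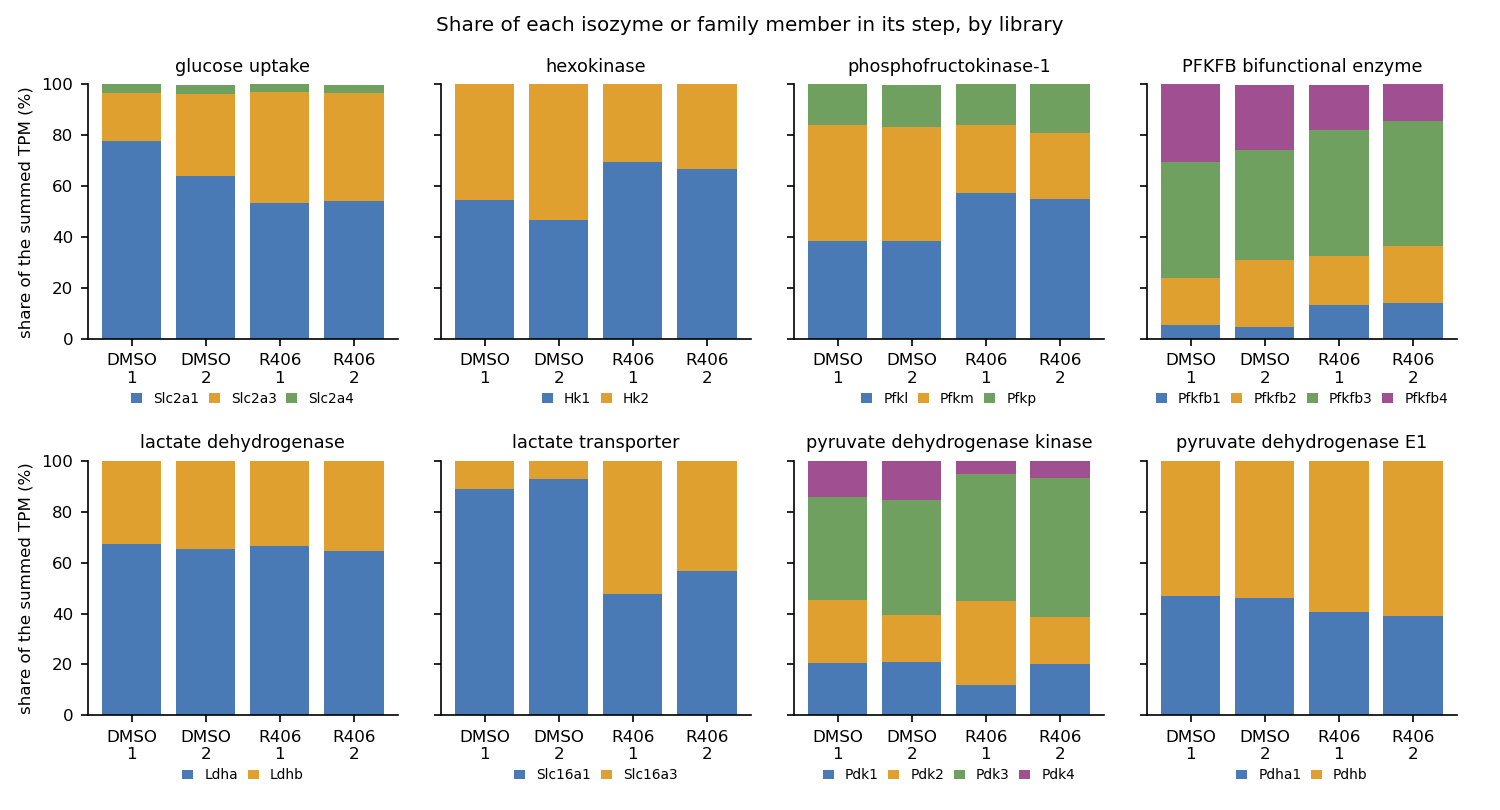
Share of each isozyme in the summed TPM of its step, in percent, for 8 steps with several members, 1 bar per library. Slc16a3 goes from 10.9% and 7.04% of the lactate transporter transcripts under DMSO to 52.5% and 43.3% under R406, Pfkm and Pfkl exchange places, and Ldha and Ldhb keep nearly level bars.

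The aldolase, triose and lower glycolytic steps gave no call in either direction. Aldoa values were 459 and 313 TPM under DMSO and 445 and 278 under R406, and the minor brain-type form Aldoc stood at 1.86 and 1.1 against 3.59 and 2.70. Tpi1, triose phosphate isomerase, had 262 and 198 TPM under DMSO and 371 and 244 under R406, overlapping by 1 library. Pgk1, the first step to return ATP, had 391 and 278 under DMSO and 265 and 194 under R406, without overlap, at −0.54 on the log2 scale (limma adjusted p = 0.289). That difference ran from −0.29 without DMSO replicate 1 to −0.78 without DMSO replicate 2. Set against each other within a library, Pgk1 over Tpi1 was 1.5 and 1.4 under DMSO and 0.716 and 0.795 under R406. Pgam1, phosphoglycerate mutase, gave 377 and 294 against 319 and 247 TPM.

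Gapdh, the enzyme between these steps and a common reference gene, was listed at only 9.65 and 15.1 TPM under DMSO and 15 and 19.8 under R406. Tpi1 exceeded it 27.1- and 13.1-fold under DMSO and 24.7- and 12.4-fold under R406, and the enzymes act on successive intermediates. The mouse genome holds many processed copies of Gapdh, and the sources used here do not give the handling of reads that match several genes. The 2 copies named after Gapdh that were summed, Gapdh-ps14 and Gapdh-ps15, held 1.48% of Gapdh plus copies. Their listed values do not make up the gap, and copies listed under other names were not summed. The Gapdh values are therefore uncertain as a level, and the difference of 0.48 (limma adjusted p = 0.360) is given only as listed. Copies were larger for other members. Eno1b, a near copy of Eno1, held 41.7% of their joint sum, and Pgam1 pseudogenes held 14.5%, Pgk1 copies 5.90% and Tpi1 copies 5.58% of theirs. For these members too, only copies named after the parent were summed, so the percentages may be incomplete. Adding these copies to their parents left the calls among members at 1 higher and 1 lower.

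Enolase was mostly Eno1, the ubiquitous form, at 235 and 146 TPM under DMSO and 256 and 141 under R406. Its log2 difference was 0.04, with an interval from −0.97 to 1.04 set by the distance between replicates. Eno2, the neuronal form, stood between 27 and 35.1 TPM in all 4 libraries. Eno3, the muscle form, gave 3.61 and 2.19 TPM under DMSO and 6.53 and 4.00 under R406, and its share of the step was 1.32% and 1.25% against 2.24% and 2.32%. Pkm, which makes pyruvate and the last ATP of the path, had 1900.5 and 959 TPM under DMSO and 1112 and 666 under R406. Its groups overlapped, and the difference of −0.65 had an interval from −1.76 to 0.46 (limma adjusted p = 0.406). Leaving out single libraries moved it to −0.16 without DMSO replicate 1, −1.14 without DMSO replicate 2, −1.02 without R406 replicate 1 and −0.28 without R406 replicate 2. A value per gene does not separate the splice forms of Pkm.

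The lactate dehydrogenase shares overlapped between groups. Ldha, the form that favours lactate, stood at 615 and 439.5 TPM under DMSO and 699 and 494 under R406, and Ldhb, the form that favours pyruvate, at 299 and 232 against 349.7 and 270.4. Ldha made up 67.3% and 65.5% of the step under DMSO and 66.6% and 64.6% under R406, a difference of −0.732 points. The exact permutation p was 0.667, but this test cannot give less than 0.333 and so decides nothing about the balance. Pkm over Ldha went from 3.09 and 2.18 under DMSO to 1.59 and 1.35 under R406. Neither gene was called (limma adjusted p = 0.406 for Pkm and 0.746 for Ldha), and the ratio was not tested.

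Slc16a3 (MCT4), the low-affinity exporter of strongly glycolytic cells, stood at 9.84 and 6.61 TPM under DMSO and at 46.6 and 38.1 under R406. Every R406 value was far above every DMSO value, with means of 8.23 ± 2.28 and 42.4 ± 5.99 (SD, n = 2). On the log2 scale the rise was 2.25 (SE 0.25, interval 1.59 to 2.90), and it passed the threshold with a limma adjusted p of 0.0183. Over 13 alternatives the adjusted p ranged from 0.00282 to 0.0609, and the call was lost in 1 of them, with no filter on low values. Slc16a1 (MCT1), the high-affinity carrier that moves lactate either way, went from 80.1 and 87.3 TPM under DMSO to 42.2 and 49.9 under R406. The groups were clearly apart, at −0.85 (interval −1.34 to −0.36), yet its limma adjusted p of 0.0639 missed the threshold. The opposite differences nearly balanced, and the summed level of both carriers was 90 and 93.9 TPM under DMSO and 88.8 and 88.1 under R406. Slc16a3 thereby held 8.99% ± 2.76 of the carrier transcripts under DMSO and 47.9% ± 6.5 under R406.

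Both carriers need a partner protein to reach the membrane, and the partners are not members of the set. Which partner each carrier uses in these cells was not tested, so the Emb values are not tied to either carrier. Emb, embigin, rose from 22.2 and 26.4 to 75.4 and 58.8 TPM, at 1.42 on the log2 scale (limma adjusted p = 0.0302). Bsg, basigin, the usual partner and named here after its values were seen, stood at 1498 and 1131 TPM under DMSO and 912 and 1053 under R406 (limma adjusted p = 0.333). The adjusted p of Emb ranged from 0.0156 to 0.130 when single libraries were left out.

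Pyruvate entry into mitochondria held the other call. Pdk4, the starvation-induced kinase that switches pyruvate dehydrogenase off, read 4.16 TPM in both DMSO libraries and 1.47 and 1.54 under R406. Replicates were almost equal and the groups well apart, at −1.04 on the log2 scale (SE 0.18, interval −1.51 to −0.58; limma adjusted p = 0.0373). This call did not survive the loss of any single library, with an adjusted p of 0.150 without DMSO replicate 1, 0.116 without DMSO replicate 2, 0.0769 without R406 replicate 1 and 0.0541 without R406 replicate 2. It was also lost with no filter on low values, at 0.110, and its low level kept it out of a test limited to genes of at least 5 TPM. Pdk1, the hypoxia-induced kinase, gave 5.99 and 5.66 against 3.28 and 4.77 TPM (limma adjusted p = 0.279). Pdk2, the widespread form, was dominated by the replicate difference, at 7.38 and 4.89 against 9.17 and 4.47 TPM. Pdk3 stood at 11.9 and 12.1 against 13.9 and 13.1 TPM and was the leading kinase in all 4 libraries. The summed kinases overlapped between groups, from 26.8 to 29.4 TPM under DMSO and from 23.8 to 27.8 under R406, while the share of Pdk4 went from 14.1% and 15.5% to 5.30% and 6.45%.

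The target of these kinases is the E1 component of pyruvate dehydrogenase. Pdha1, its catalytic subunit, stood at 90.9 and 88.8 TPM under DMSO and 64.7 and 69.3 under R406, without overlap, at −0.42 with an interval from −0.87 to 0.03 (limma adjusted p = 0.211). Pdhb, the partner subunit, was level at 103 and 104 against 94.8 and 109 TPM, and the sign of its difference of −0.02 flipped under other scalings. Pdha1 over Pdhb was 0.885 and 0.854 under DMSO and 0.683 and 0.636 under R406. The fructose bisphosphatases, which serve the reverse path back to glucose, stayed under 1 TPM in every library. Fbp1, the liver form of fructose bisphosphatase, read 0.231 and 0.0443 TPM under DMSO and 0.830 and 0.764 under R406, and Fbp2, the muscle form, stayed between 0.169 and 0.577, both without a test.

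Around the members, 10 lists of related genes were drawn up, with 108 genes of which 79 were tested. By the same limma test 5 rose and 1 fell, or 7.59% beside 8.31% of all genes, with a median difference of −0.09. Unadjusted limma p was under 0.05 for 12 with higher and 16 with lower values, or 35.4% beside 26.8% of all genes. The calls named below are thus no more frequent than in the background. Glycogen metabolism had the lowest median of the 10, −0.46, and all 8 tested genes had negative differences, from −1.40 to −0.03. Ugp2, which makes the glucose donor for glycogen, was its 1 call, at 133 and 131 TPM under DMSO and 46.5 and 52.5 under R406 (−1.40, limma adjusted p = 0.0214). The pentose phosphate list had a median of −0.09 and 1 higher gene of 8, Rpia, which isomerises ribose phosphate, at 5.68 and 5.19 against 11.5 and 12.5 TPM (limma adjusted p = 0.0413).

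Hypoxia-related genes outside the set did not move one way. Of 15 tested genes induced by low oxygen, 1 rose, P4ha2, a collagen prolyl hydroxylase, from 49.0 and 43.4 to 158 and 106 TPM (limma adjusted p = 0.0374). The list's median was 0.20, with values from −0.88 to 1.47. In this list 4 genes were higher and 2 lower at an unadjusted limma p under 0.05. Among the regulators below these counts were 3 higher and 4 lower. Of 16 tested regulators, 1 rose, Egln3, the oxygen sensor that marks hypoxia-inducible factor for breakdown, from 2.89 and 2.39 to 6.77 and 7.16 TPM (limma adjusted p = 0.0361). Slc25a13, an aspartate and glutamate carrier of the malate-aspartate shuttle, read 1.05 TPM in both DMSO libraries and 3.61 and 2.80 under R406, and was the 1 call of 7 (limma adjusted p = 0.0478). No call was made among 7 other sugar transporters and hexokinases, 6 other isozymes, 5 other pyruvate dehydrogenase genes and 3 gluconeogenic genes, where unadjusted limma p was under 0.05 for 4, 2, 1 and 1 of them. The calls of Egln3 and Rpia were lost without any 1 of the 4 libraries, with adjusted p of 0.0537 to 0.149 and 0.0752 to 0.193. Leaving out single libraries gave ranges of 0.0112 to 0.119 for P4ha2, 0.0200 to 0.103 for Ugp2 and 0.0363 to 0.173 for Slc25a13.

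Nfatc1 binding at the members was read from the authors' deposited peak lists, 21246 peaks with DMSO and 36885 with R406. Peaks within a gene or 5 kb of it were found for 20 of 35 members in the DMSO list, beside 53.3% of tested genes, and for 26 of 35 in the R406 list, beside 71.3%. Over promoter windows of 300 bases, which 33 members had, the counts were 15 and 17, beside 35.0% and 50.7% of tested genes. Each list comes from 1 library, the R406 list is longer, and no test of a difference can be made. Peaks of the R406 list carry a name that is not the label of that sample, so each statement that a peak is in one list alone rests on the assignment of the deposited list.

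Slc16a1 had a single peak, in the DMSO list alone, at chr3:104638224-104638754, with the summit 262 bases before the start and a fold enrichment of 8.74 as the authors gave it. That peak covers the printed stretch of Slc16a1 and its CACGTG. Slc16a3 had no peak in either list. Pdk4 had a single peak in the R406 list alone, at chr6:5496265-5496917, with its summit 2 bases before the start and a fold of 8.22. Ldha had 1 peak in the DMSO list alone, at chr7:46845745-46846123, summit 67 bases into the gene, with a fold of 8.74.

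Other members were bound in both lists. Hk2 carried 4 peaks in the DMSO list and 5 in the R406 list, including one over the printed stretch in each, with folds of 13.8 and 15.8. Pfkfb4 had a promoter peak in both, at folds of 17.5 and 20.9, Pgk1 at 18.2 and 10.1, and Pkm at 13.1 and 30.4. Pfkl had peaks in the R406 list alone, one of them over its promoter at chr10:78009117-78009779 with a fold of 14.5, and Pfkm had 2 peaks inside the gene in the R406 list alone. Slc2a3 had 1 peak in its gene in the DMSO list and none in the R406 list. Eno1 and Pfkfb2 had promoter peaks in the R406 list alone. Gapdh and Tpi1 had several peaks nearby, in a stretch of chromosome 6 dense with genes, where a neighbour may be the nearer gene.

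**Figure D5:**
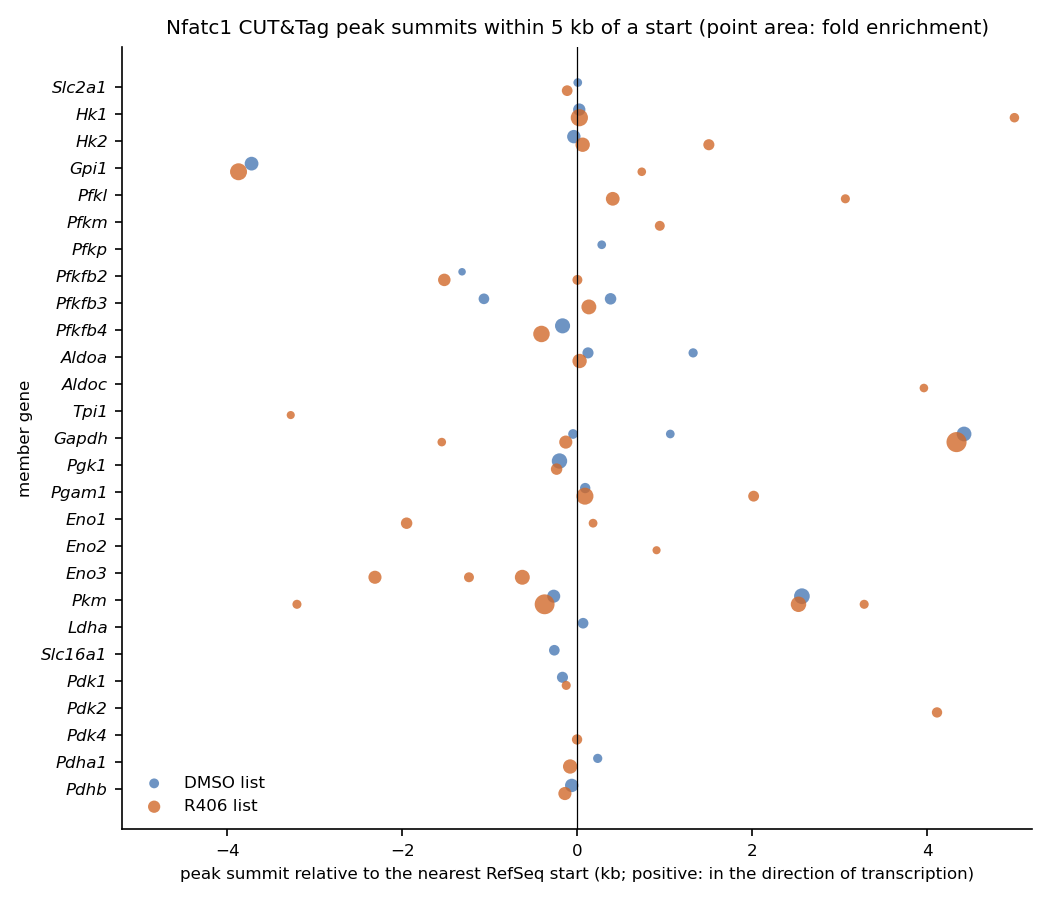
Distance in kb from each Nfatc1 peak summit to the nearest RefSeq start of the same member, where a neighbouring gene may start closer. Shown are the 27 members with a summit within 5 kb of their own start, 18 in the DMSO list and 24 in the R406 list. Point area is the authors' fold enrichment; most summits lie close to 0, and Slc16a3 has no point.

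The letters ACGTG, on either strand of the 250 bases before a start, occurred in 16 of 33 members with a window, beside 24.8% of tested genes. A gene counts if any of its windows holds a match, so genes with several windows have more chances, also in the counts below. Per window, ACGTG occurred in 20 of 52 member windows, or 38.5%, beside 16.6% of the windows of all genes, tested or not. Members with a match were Slc2a1, Hk2, Pfkm, Pfkfb2, Pfkfb3, Aldoa, Pgk1, Pgam1, Pkm, Ldha, Slc16a1, Slc16a3, Pdk2, Pdk3, Pdhb and Fbp2. They include Slc16a3, which rose, and Hk2, Slc16a1 and Pfkfb2, whose values were lower under R406 without passing the test. The other form GCGTG occurred in 22 of 33 members, beside 50.6%, and CACGTG, which contains ACGTG and is also the site of Myc-type factors, in 7 of 33, beside 10.0%. GGAAA, the core letters of NFAT sites, occurred in 20 of 33, beside 57.9%. A match describes the letters only, and the members were picked by function rather than by sequence.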

How the data were processed

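RNA-seq was measured in 2 DMSO and 2 R406 libraries and CUT&Tag in 1 DMSO and 1 R406 library, grouped by sample title. The blank CUT&Tag library was not analysed here. The authors deposited TPM per gene (HISAT2 2.1.0 and StringTie 2.0 on mm10 are among the tools in the submitters' processing notes), from unstranded NEBNext Ultra libraries per the labels' protocols, and the 4 single files equalled the joint table. TPM has a fixed sum, so depth cannot be recovered and a rise in some genes lowers others. Without strand, antisense and overlapping genes share reads. The sources used here do not give the annotation or the multi-mapping rules. The deposited peak lists give a score, a fold enrichment (ratio) and −log10 values of p and q, and the tools named in the submitters' processing notes include Bowtie2 2.2.5 and MACS2 2.1.2.

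Tested genes averaged 1 TPM or more over the 4 libraries. The test was two-sided, by limma 3.58.1 (R 4.3.3), on log2 of TPM plus a pseudocount of 1, and let the prior variance follow a trend. The model was first run on simulated data with independent libraries. Those data lack the correlation between same-numbered libraries given in the closing section, so the run checks the code only. Fold changes of means are ratios of TPM, and log2 differences understate changes of low genes. Replicate numbers stayed out of the model, since no label says what they share. Isozyme shares were compared by exact permutation over libraries. Ratios between genes were taken for pairs picked by hand and were not tested. Peaks were joined to RefSeq genes of GRCm38.p6 (all 35 members matched, 33 with promoter windows of 250 bases before to 50 after the start). Of the table's genes, 53620 had a symbol, and a second Aldoa identifier at 0.650 TPM or less was not used. All members were named, and of other lists the genes past the threshold. Hk3, which was not tested, and Bsg were named outside this rule. Members and lists were chosen with earlier results of these data known. Alternatives changed the pseudocount (0.1), filter (none, 5 TPM), scaling, prior trend, copies, replicate block, libraries, peak window (gene body, 10 kb) and peak −log10 q (10).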

Additional observations from a re-analysis of the deposited data

How the results depend on the processing

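Each choice was changed alone. Of 33 tested members, 23 kept their sign in every alternative and 10 changed it when a library was left out. Of these, 1, Pdhb, also changed sign under other scalings: 0.03 with quantile normalization, 0.02 with median centring and 0.00 without mitochondrial, ribosomal protein and Gm genes. These 3 scalings each called 2 members higher and 3 lower, adding Slc2a3, Hk2 and Pfkfb4 to the main calls, and the last called 2096 genes in all. With no low-value filter 0 members were higher, 0 lower and 0 genes called in all by limma, with 5394 genes and 9 members at an unadjusted p under 0.05. With a minimum of 5 TPM 0 members were lower (Pdk4 was not tested), and 643 genes were called in all. Counts of members with a peak stayed within 1.5 times the main count under each window and the stricter limit. Depth cannot be read from TPM, and 2 libraries per group limit the precision of every value.

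With the replicate number as a block, limma called 7 members higher and 10 lower, and 4663 genes in all. Beside Slc16a3 and Pdk4 the members called were Slc2a3, Hk2, Gpi1, Pfkl, Pfkm, Pfkfb2, Pfkfb4, Aldoc, Tpi1, Gapdh, Pgk1, Eno3, Pkm, Slc16a1 and Pdha1. Deviations from the group mean correlated between same-numbered libraries at r = 0.556 over 13929 genes, but there are only 2 pairs and no label says what a number shares, so the pairing is a hint from the data and not part of the design.

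Leaving out 1 library at a time, which assumes that the lone library of a group varies like the other group, gave 1 to 2 members higher, 0 to 0 lower and 317 to 1410 genes called, the fewest without DMSO replicate 1 (317) and without DMSO replicate 2 (718). The median of all genes then moved from −0.14 to 0.09, and the members' median from −0.18 to 0.23. Log2 differences that changed sign ranged from −0.33 to 0.03 for Eno2, −0.45 to 0.23 for Aldoa, −0.84 to 0.17 for Gpi1, −0.10 to 0.36 for Pfkp, −0.17 to 0.34 for Slc2a1, −0.14 to 0.41 for Hk1, −0.36 to 0.53 for Pdk2, −0.07 to 0.43 for Ldha, −0.39 to 0.46 for Eno1 and −0.12 to 0.08 for Pdhb. Of the 23 members that kept their sign, 13 moved by over 1.5 times: Eno3, Gapdh, Ldhb, Pdk1, Pfkfb1, Pfkfb3, Pfkl, Pfkm, Pgam1, Pgk1, Pkm, Slc2a4 and Tpi1. Of 29 shares 7 changed sign, with ranges in points of −1.74 to 0.273 for Ldha, −0.273 to 1.74 for Ldhb, −5.55 to 2.72 for Pfkfb2, −2.62 to 3.42 for Eno1, −4.38 to 1.58 for Eno2, −2.96 to 11.3 for Pdk2 and −0.437 to 2.78 for Pfkp. With Eno1b added, the share of Eno1 differed by −0.00584 points. The cause of these shifts was not tested.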
